A study of Homo sapiens with 14 samples.

Results

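To describe the transcriptional state of cells given CX-5461, the 2 libraries labelled CX-5461 for 10 min were compared with the 2 control libraries. These are 4 of the 14 RNA-seq libraries of the series. Cells of MDA-MB-231, a line established from human breast cancer and of mesenchymal type, received 5 µM CX-5461 for 10, 30 or 120 min, 5 µM RBI2 for the same times, or no compound, with 2 libraries in each of the 7 groups. CX-5461 is an inhibitor of transcription initiation by RNA polymerase I (Pol I), and RBI2 is a second inhibitor of ribosome biogenesis. The controls are untreated by the labels and the methods, while the results of the study speak of DMSO, so a vehicle effect cannot be told apart from the compound. Members were chosen by the sample label. The deposited file names carry another number without a unit, 2 for the label 10 min, 10 for the label 30 min and 30 for the label 120 min. The 2 may stand for 2 h. The true exposure of the libraries labelled 10 min may thus be shorter or longer than 10 min, or the longest of the series. Each statement below holds for the label only. Nothing in the labels says that replicates came from separate cultures, so that p-values measure the spread between these libraries, which may be technical.

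Pol I transcribes the ribosomal RNA precursor in the nucleolus, while RNA polymerase II makes the mRNAs and long noncoding RNAs measured here as poly(A) RNA. Inhibitors of transcription deplete short-lived RNAs first, and immediate early genes such as FOS and EGR1 are induced by growth factor and stress signals without new protein synthesis. The products of many of these genes are transcription factors or feedback inhibitors whose RNAs turn over within minutes to hours. In RNA from whole cultures, fewer cells with an RNA and less of that RNA per cell cannot be told apart.

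Totals lay between 14112299 and 24849354 estimated reads per library. They were 16020768 and 14811266 in the controls and 18426950 and 17937467 with CX-5461 labelled 10 min. Markers of the line were checked. In the 4 libraries, VIM (vimentin) lay between 2084 and 2642 TPM, a level per transcript length and CD44 between 500.1 and 750.3 TPM, ESR1 was at most 0.0247 TPM, and the leukocyte marker PTPRC was at most 0.068 TPM. Epithelial genes went both ways. CDH1 was at most 0.122 TPM, while KRT18, a keratin that this line is known to express, was at 293.8 to 400.8 TPM. EPCAM was at 11.4 to 22.4 TPM and GATA3 at 1.82 to 3.48 TPM. Control replicate 2 stood apart from every other library. Genes of the mitochondrial genome took 20.4% of its reads, compared with 9.45% in control replicate 1 and 8.05% to 11.2% in the other 12 libraries, and its scaling factor was 0.856. The 2 controls differed over 2-fold at 1412 genes, and the 2 libraries of CX-5461 labelled 10 min at 516. Results that lose their call without a library are marked below.

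Levels are given in CPM, the reads of a gene as a share of the library after TMM scaling, and changes as log2 fold changes with their standard error (SE) from edgeR's quasi-likelihood test on all 14 libraries. A gene was called when its Benjamini-Hochberg adjusted p was under 0.05 and it differed by log2 1 or more in either direction. Of 15426 genes tested, 253 (1.64%) were called, of which 116 (0.752%) were higher and 137 (0.888%) lower with CX-5461 labelled 10 min. Without the limit on the fold change, 277 (1.8%) were higher and 459 (2.98%) lower. Counts of called members in the lists below are to be read beside these shares. The median log2 fold change of all genes was -0.04. For all 253 called genes, both libraries of one group lay above both of the other, as they did for 47% of all genes tested. The immediate early genes on the list used here made up 15 of the 253. Genes called higher were low in the control, with a median of 1.84 CPM, and 82 of the 116 lay under 5 CPM there. Genes called lower had a control median of 11.1 CPM, against 17.2 CPM for all genes tested. Leaving out a library changed these numbers. A fit without a library of the comparison has 1 library in that group, which is assumed to vary like the other groups. Without control replicate 1, 1354 genes were called, and without control replicate 2, 154, of which 123 were among the 253. Without CX-5461 replicate 1 and replicate 2 the counts were 129 and 140. The 79 genes called in all 4 of these fits (40 higher and 39 lower) also kept their call in each of the other 10 fits that left out a library, and the genes described in detail below belong to them unless a library is named. With only the 4 libraries of this comparison in the model, edgeR called 3 genes.

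**Figure D1:**
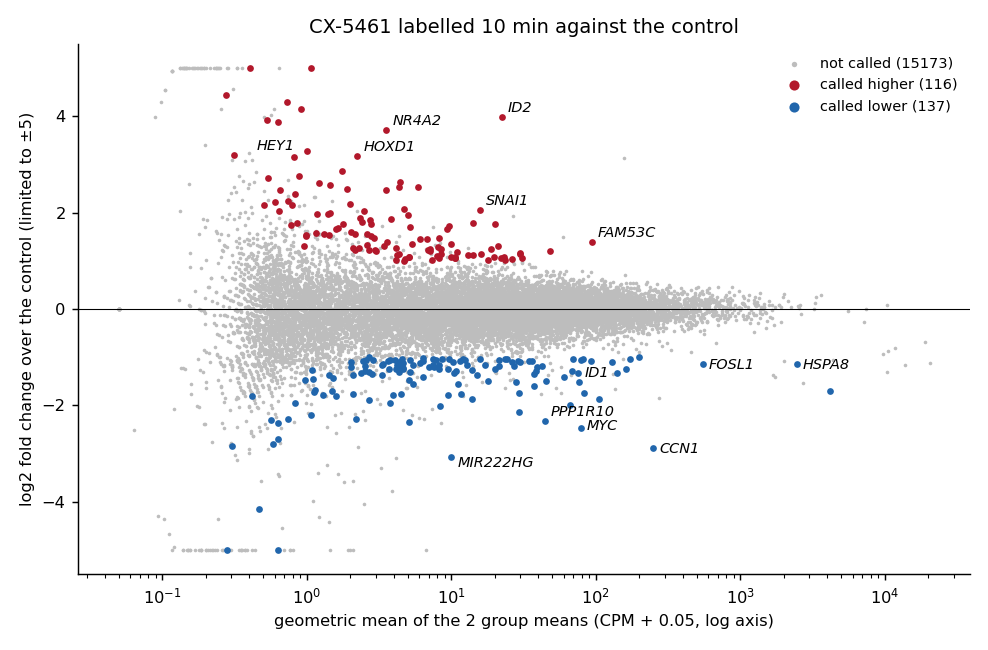
Log2 fold change of CX-5461 labelled 10 min over the control (vertical axis, limited to 5 in each direction) against the geometric mean of the group means in CPM (log axis), 1 point per gene tested. Called genes are red (116 higher) and blue (137 lower). Genes called higher lie mostly at low levels, and CCN1, MYC, FOSL1 and HSPA8 are lower at high levels.

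The immediate early genes moved in both directions. Of 17 tested, 10 were called higher (58.8%, beside 0.752% of all genes tested) and 5 lower (29.4%, beside 0.888%). Their median log2 fold change was 1.08. NR4A2, an orphan nuclear receptor, was at 0.932 and 0.959 CPM in the controls and at 13.5 and 11.7 CPM with CX-5461, a 13.2-fold rise (log2 3.73 ± 0.41 SE, edgeR adjusted p = 0.000521). FOSB was at 1.62 and 1.92 CPM in the controls and 10.8 and 9.67 CPM with the compound. FOS rose from 2.30 and 2.24 to 9.97 and 9.23 CPM. EGR1, NR4A1, NR4A3 and ATF3 rose by log2 1.77, 2.48, 3.28 and 1.66. The treated libraries of each of these 7 genes lay above all 12 other libraries of the series. The same held for 103 of the 116 genes called higher and for 4.12% of all genes tested. The remaining rises, JUNB, BTG2 and ARC, lost their call in at least 1 of the fits without a library of the 2 groups, JUNB and BTG2 without control replicate 2 among others and ARC without CX-5461 replicate 1. With the offset for transcript length, JUNB (log2 0.97), BTG2 (log2 1.15) and ARC (log2 2.135) lost their call. JUNB also lost it with the offset for GC content and length (log2 0.75). With the length offset, 7 members of the list were called higher and 6 lower, and with the other offset 9 and 6. In the main fit, the members that fell were MYC, KLF6, JUN, IER3 and FOSL1. JUN was at 113 and 102 CPM in the controls and at 44.5 and 43.5 CPM with CX-5461 (log2 -1.29 ± 0.07 SE, edgeR adjusted p = 6.04e-06). FOSL1, another AP-1 gene, went from 696 and 938 to 377 and 362 CPM, and its call was lost without control replicate 2. Thus the AP-1 genes FOS and FOSB were higher, and JUN and FOSL1 lower, in the same 2 libraries.

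The fall of MYC and the rise of ID2 were among the changes with the smallest adjusted p. MYC, which drives growth and ribosome synthesis genes, was at 178 and 193 CPM in the controls and at 34.9 and 32.3 CPM with CX-5461, 5.52-fold lower (log2 -2.46 ± 0.08 SE, edgeR adjusted p = 4.15e-08). In the 10 libraries outside the comparison MYC ranged from 121 to 165 CPM, so that no other library was near the treated ones. Of the 11 tested genes of the MYC network, MYC was the only one called lower and MXD4, a MYC antagonist, the only one called higher (14.98 and 12.1 CPM against 27.7 and 29.9 CPM). MXD4 lost its call without control replicate 2. This call was also lost with the offset for transcript length (log2 0.72, edgeR adjusted p = 0.134) and with the offset for GC content and length (log2 0.84). MAX, the dimerization partner, was at 59.0 and 91.8 CPM in the controls and 57.8 and 63.7 CPM with CX-5461 and did not pass.

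The ID genes encode helix-loop-helix proteins that lack a DNA-binding region and hold back differentiation factors, and they are classic targets of BMP and SMAD signalling. The members of this family moved in opposite directions. ID2 was at 5.28 and 5.91 CPM in the controls and at 92.3 and 85.6 CPM with CX-5461, a 15.9-fold rise (log2 3.99 ± 0.12 SE, edgeR adjusted p = 2.8e-08). The other 10 libraries lay between 4.60 and 17.2 CPM. ID4 rose from 0.684 and 1.12 to 4.15 and 3.95 CPM, and its call was lost without either treated library. ID1 fell from 157 and 101 to 47.1 and 42.9 CPM (log2 -1.52 ± 0.17 SE, edgeR adjusted p = 0.000567). ID3 was at 70.7 and 47.9 CPM in the controls and 35.3 and 31.6 CPM with CX-5461, which passed the adjusted p (0.0129) but not the limit on the fold change (log2 -0.83 ± 0.16 SE). Per transcript length, the means of ID1 and ID2 were 187 and 6.46 TPM in the control and 66.0 and 137 TPM with the compound. Thus ID2 lay below ID1 in the control and above it with the compound. Both treated libraries of ID1 and of ID3 lay below both controls, and those of ID2 and ID4 above. The groups were apart in either direction for 47% of all genes tested. Over the whole list of ID genes and BMP/SMAD feedback genes, 3 of 19 were higher (ID2, ID4 and BAMBI, which encodes a decoy receptor), 1 was lower (ID1), and the median was 0.09. BAMBI rose from 6.22 and 4.23 to 19.2 and 15.3 CPM. SMAD7, the inhibitory SMAD, passed without the limit (log2 0.58).

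The promoters of ID1, ID2, DKK1 and FOS are shown because these genes moved strongly and in different directions within their families. Each line holds 250 bases before and 50 after the start of transcription, 5′ to 3′ on the strand of the gene, from RefSeq (GRCh38.p14), and all 4 genes are on the plus strand. They lie at chr20:31605039-31605338, chr2:8681806-8682105, chr10:52314031-52314330 and chr14:75278578-75278877. Capitals mark matches to the motifs searched, on both strands.
ID1: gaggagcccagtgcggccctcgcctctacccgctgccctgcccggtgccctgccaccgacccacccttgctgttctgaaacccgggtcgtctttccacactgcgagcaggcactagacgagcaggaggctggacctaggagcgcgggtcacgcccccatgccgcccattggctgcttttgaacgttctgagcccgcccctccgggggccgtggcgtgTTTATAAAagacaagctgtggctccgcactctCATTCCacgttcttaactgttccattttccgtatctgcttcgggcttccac
ID2: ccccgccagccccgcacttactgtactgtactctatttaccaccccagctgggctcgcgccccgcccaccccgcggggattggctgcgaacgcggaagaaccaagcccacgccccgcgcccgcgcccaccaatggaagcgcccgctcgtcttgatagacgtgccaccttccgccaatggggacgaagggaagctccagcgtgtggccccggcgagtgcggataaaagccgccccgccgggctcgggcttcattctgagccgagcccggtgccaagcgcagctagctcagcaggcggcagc
DKK1: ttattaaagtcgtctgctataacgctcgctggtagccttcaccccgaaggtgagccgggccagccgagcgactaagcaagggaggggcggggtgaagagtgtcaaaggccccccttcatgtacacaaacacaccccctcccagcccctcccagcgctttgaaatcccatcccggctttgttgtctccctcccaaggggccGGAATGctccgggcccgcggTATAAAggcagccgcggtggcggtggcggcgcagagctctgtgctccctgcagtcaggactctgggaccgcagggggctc
FOS: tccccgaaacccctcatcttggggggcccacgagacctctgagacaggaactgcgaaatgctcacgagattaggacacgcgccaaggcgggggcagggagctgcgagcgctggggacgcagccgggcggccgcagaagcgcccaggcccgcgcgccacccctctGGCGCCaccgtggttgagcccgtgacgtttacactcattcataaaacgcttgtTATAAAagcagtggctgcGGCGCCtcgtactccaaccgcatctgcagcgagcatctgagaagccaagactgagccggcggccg
The 8 motifs searched were the cAMP response element, the AP-1, TEAD, BMP/SMAD, E-box and TATA box motifs, and an SRF and an NF-kB motif. Letters stand beside the shares below, except for the SRF and NF-kB motifs, which had 10 bases each. A match says only that these letters are present. In ID1 a TATA box match stood on each strand, overlapping each other and beginning 33 and 31 bases before the start, and a TEAD match reached across the start. ID2 held no match of the 8 motifs. DKK1 held a TEAD and a TATA box match 50 and 30 bases before the start, and FOS a TATA box match 33 bases and BMP/SMAD matches 86 and 15 bases before it. Of the 116 genes called higher, 80 had a promoter in the table, and 95 of the 137 called lower. A TATA box match (the letters TATAAA) was present in 12.5% of the first and 10.5% of the second, compared with 5.62% of the 10969 genes tested that had a promoter and 11.95% of all 27305 promoters. For the TEAD motif, GGAATG, the shares were 5% of those called higher, 10.5% of those called lower and 10.9% of the genes tested, or 14.1% of all promoters. For the BMP/SMAD element, GGCGCC, they were 31.3%, 21.1% and 30.6%, or 19.0% of all promoters. For the AP-1 motif, TGAGTCA, they were 1.25%, 3.16% and 3.27%, or 4.92% of all promoters, and for the cAMP response element, TGACGTCA, they were 2.5%, 2.11% and 3.3%, or 1.98%. For the E-box, CACGTG, they were 10%, 6.32% and 9.99%, or 7.44%. The SRF motif searched was in 1 promoter of those called higher, the one of EGR1, and in 0.0366% of all promoters. The NF-kB motif searched was in 1 of those called lower and 0.194% of all. These shares hold for the letters searched only, and other forms of the SRF and NF-kB elements are not counted in them.

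**Figure D2:**
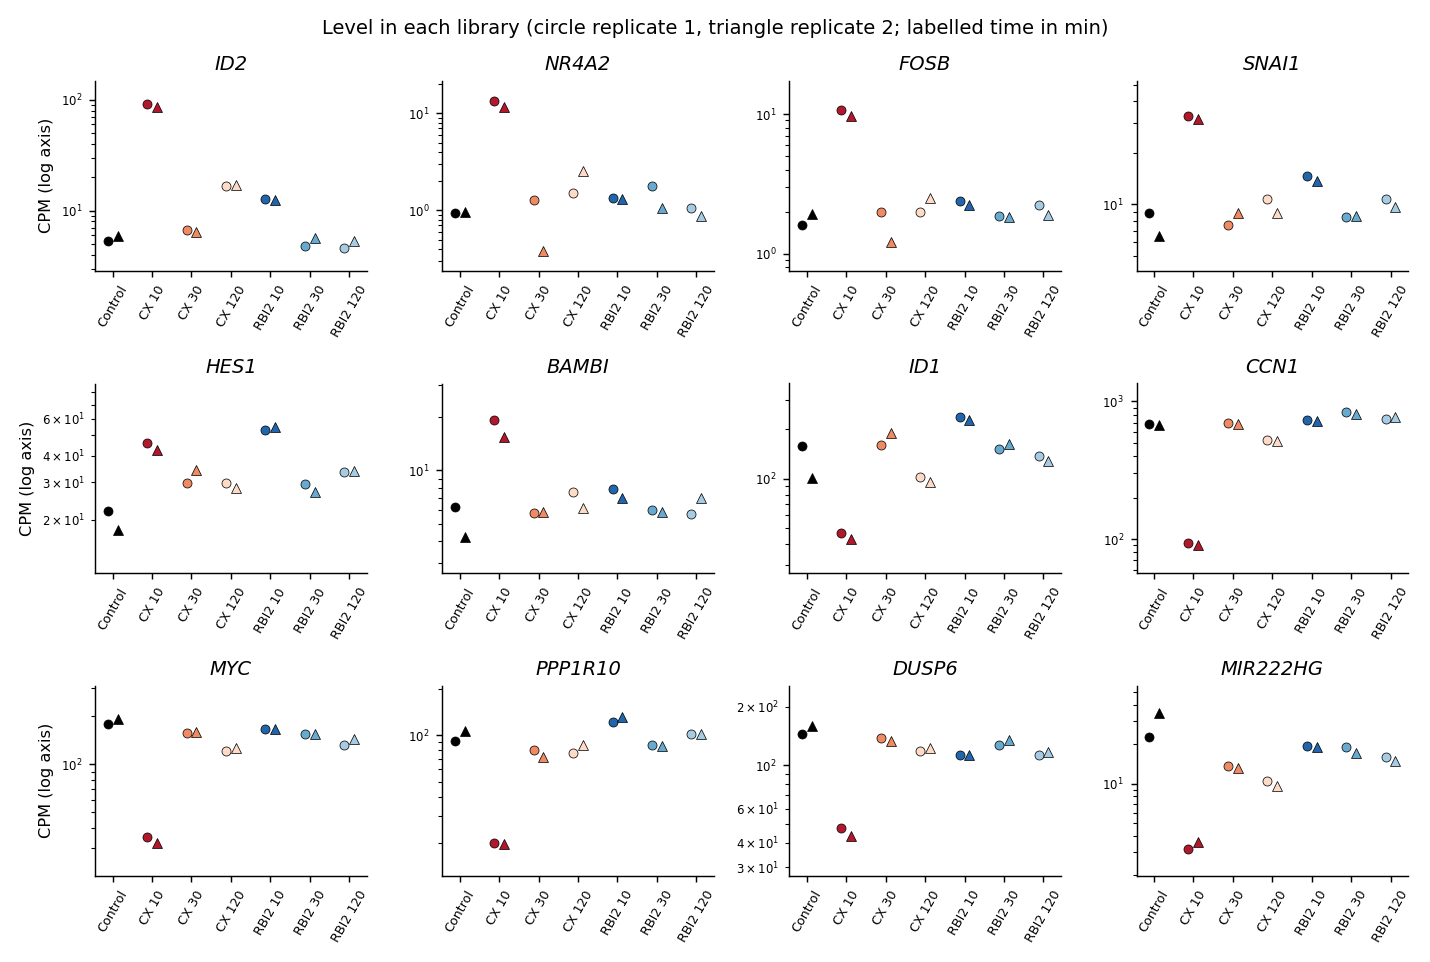
CPM (log axis) of 12 genes in each of the 14 libraries, by group, with circles for replicate 1 and triangles for replicate 2 (CX is CX-5461, with the labelled time in min). The libraries of CX-5461 labelled 10 min stand above all others for ID2, NR4A2, FOSB, SNAI1 and BAMBI and below all others for ID1, CCN1, MYC, PPP1R10, DUSP6 and MIR222HG. For HES1 the 10 libraries outside the comparison reach 54.98 CPM, above the treated ones.

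CCN1 had the smallest adjusted p of all genes against the control. It encodes a secreted matrix protein and is a target of both YAP/TEAD and SRF/MRTF signalling. The controls were at 685 and 673 CPM and the treated libraries at 94.1 and 90.6 CPM, 7.35-fold lower (log2 -2.88 ± 0.06 SE, edgeR adjusted p = 1.93e-09). Its relative CCN2, another target of this pathway, was at 598 and 647 CPM in the controls and 339 and 329 CPM with CX-5461, and passed without reaching the limit (log2 -0.90 ± 0.07 SE, adjusted p = 3.77e-05). The other YAP/TEAD targets did not follow by the same size. Of 24 tested, CCN1 was the only one called, 5 fell and 2 rose without the limit, and the median was -0.24. The median was -0.43 without control replicate 1, with 3 called lower and 1 higher, and without control replicate 2 it was -0.12. ANKRD1 (476 and 474 against 339 and 353 CPM, log2 -0.45), F3 (log2 -0.46) and AMOTL2 (log2 -0.48) were lower, and GADD45B was higher by log2 0.88. Of 23 SRF/MRTF and cytoskeletal targets, 3 were called lower and none was called higher, with a median of 0.01. Beside CCN1 they were CDC42EP2, a CDC42 effector (58.5 and 49.5 against 15.4 and 16.8 CPM), and FILIP1L, whose call was lost without control replicate 2 and without either treated library. RHOB (log2 0.90) and SRF itself (log2 0.42) were higher without reaching the limit.

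Of 21 feedback inhibitors of MAPK signalling tested, 4 were called lower (DUSP6, SPRY2, IER3 and PHLDA1) and 1 higher (DUSP8), and without the limit 10 were lower, 2 were higher and 9 did not pass. The list's median was -0.35, compared with -0.04 over all genes. DUSP6, a phosphatase of ERK, was at 145 and 160 CPM in the controls and 47.6 and 43.4 CPM with CX-5461 (log2 -1.74 ± 0.08 SE, edgeR adjusted p = 9.32e-07). SPRY2, an inhibitor of receptor tyrosine kinase signalling, fell from 49.0 and 45.5 to 16.3 and 16.7 CPM. PHLDA1 fell from 214 and 229 to 89.4 and 86.4 CPM. The 2 groups did not overlap for any of these genes, as for all 253 called genes and 47% of all genes tested. The replicates were close to each other. SPRY1, DUSP10, DUSP4, SPRED3, SPRY4 and DUSP1 were lower without reaching the limit, from log2 -0.89 for SPRY1 to -0.49 for DUSP1. DUSP8 had a low level (1.18 and 0.559 against 2.80 and 2.95 CPM) and lost its call without control replicate 2, without either treated library and without some libraries of other groups. EGFR, the receptor upstream of this pathway, was at 154 and 240.5 CPM in the controls and 138 and 151 CPM with CX-5461 and did not pass, and none of the 10 tested EGFR family ligands and receptors was called by edgeR or DESeq2, while 2 were lower without the limit, the same number as at an unadjusted p under 0.05, and 1 was called lower without control replicate 1.

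Among developmental pathways, the Notch list held 4 genes called higher of 16 tested, 5 without the limit and 11 that did not pass, and its median was 0.96. DESeq2 called 2 of them and gave no adjusted p for HEY1 and DLL4. Without control replicate 1, 9 members were called higher and 1 lower, and without each of the other 3 libraries of the comparison 3 were higher. HES1, a repressor induced by Notch, rose from 22.1 and 17.9 to 46.1 and 42.7 CPM (log2 1.15 ± 0.11 SE, edgeR adjusted p = 0.000316). NRARP, a feedback inhibitor of Notch, rose from 3.17 and 2.48 to 9.86 and 8.56 CPM. HEY1 rose from 0.249 and 0.240 to 2.32 and 2.17 CPM. DLL4, a Notch ligand, rested on 1 library with reads in the control (0.0622 and 0 CPM) against 1.13 and 0.667 CPM, and lost its call in 11 of the 14 fits without a library. The receptors NOTCH1 (62.0 and 63.6 against 65.0 and 76.1 CPM) and NOTCH2 (173 and 283 against 164 and 188 CPM) did not pass. The Wnt list of 14 held 2 genes called higher and 1 called lower, which were DKK1, FZD8 and AXIN2. DKK1, a secreted Wnt inhibitor, fell from 223 and 180 to 55.5 and 55.5 CPM (log2 -1.86 ± 0.09 SE, edgeR adjusted p = 2.49e-06). The receptor gene FZD8 rose from 0.808 and 0.399 to 4.42 and 4.73 CPM, and AXIN2, a negative regulator, from 0.435 and 1.12 to 4.37 and 4.23 CPM, a call lost without either treated library. Of 14 SOX and other lineage regulators, SNAI1, a repressor of epithelial genes, rose from 8.89 and 6.55 to 32.8 and 31.6 CPM (log2 2.05 ± 0.15 SE, edgeR adjusted p = 3.77e-05). SOX9 fell from 108 and 162 to 62.5 and 64.1 CPM, and its call was lost without control replicate 2. Homeobox genes, a list added after the values were seen, held 7 genes called higher and none called lower of 43 tested. Their median was 0.00. The other 44 lists were fixed first, but with earlier results of these data known. HOXD1 rose from 0.932 and 0.479 to 6.79 and 6.34 CPM and kept its call in every fit without a library. DLX2, DLX3, MNX1, EN2, IRX1 and SIX2 lost theirs in at least 1 such fit. IRX1 kept its call in only 1 of the 14, and lost it with the replicate block (log2 1.65, edgeR adjusted p = 0.0674). With the length offset 4 homeobox genes were called higher, and with the offset for GC content and length 5 higher and 1 lower. The homeobox genes called higher had at most 5.67 CPM in a control library.

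The cAMP/CREB list of 15 held 5 genes called higher and 1 called lower, with a median of 0.69, and 4 of the 5 (FOS, NR4A1, NR4A2 and NR4A3) are immediate early genes as well. The other is RGS2 (log2 1.08), a regulator of G protein signalling, whose call was lost without control replicate 2 and without each treated library. PDE4B, a phosphodiesterase that degrades cAMP, fell from 2.42 and 3.36 to 0.808 and 0.834 CPM, a call lost with the offset for transcript length (log2 -1.19, edgeR adjusted p = 0.0965). Among KLF and SP factors (17 tested, median 0.05, and -0.34 and 0.33 without control replicates 1 and 2 in turn), KLF6 fell from 141 and 126 to 35.8 and 31.0 CPM (log2 -1.998 ± 0.09 SE, edgeR adjusted p = 1.41e-06), and KLF9, which was low (1.06 and 1.20 against 3.23 and 3.56 CPM), rose but lost its call without control replicate 2 and without either treated library. KLF10 rose by log2 0.69 without reaching the limit. Both directions therefore occurred within the immediate early, ID, KLF and Wnt lists. Of 15 clock genes, none was called by edgeR or DESeq2, 6 had an unadjusted p under 0.05, and PER1, PER2, CRY2, NFIL3 and BHLHE40 rose without the limit, by log2 0.52 to 0.88, while 10 did not pass. Without control replicate 2, and with the length offset, 1 clock gene was called higher.

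**Figure D3:**
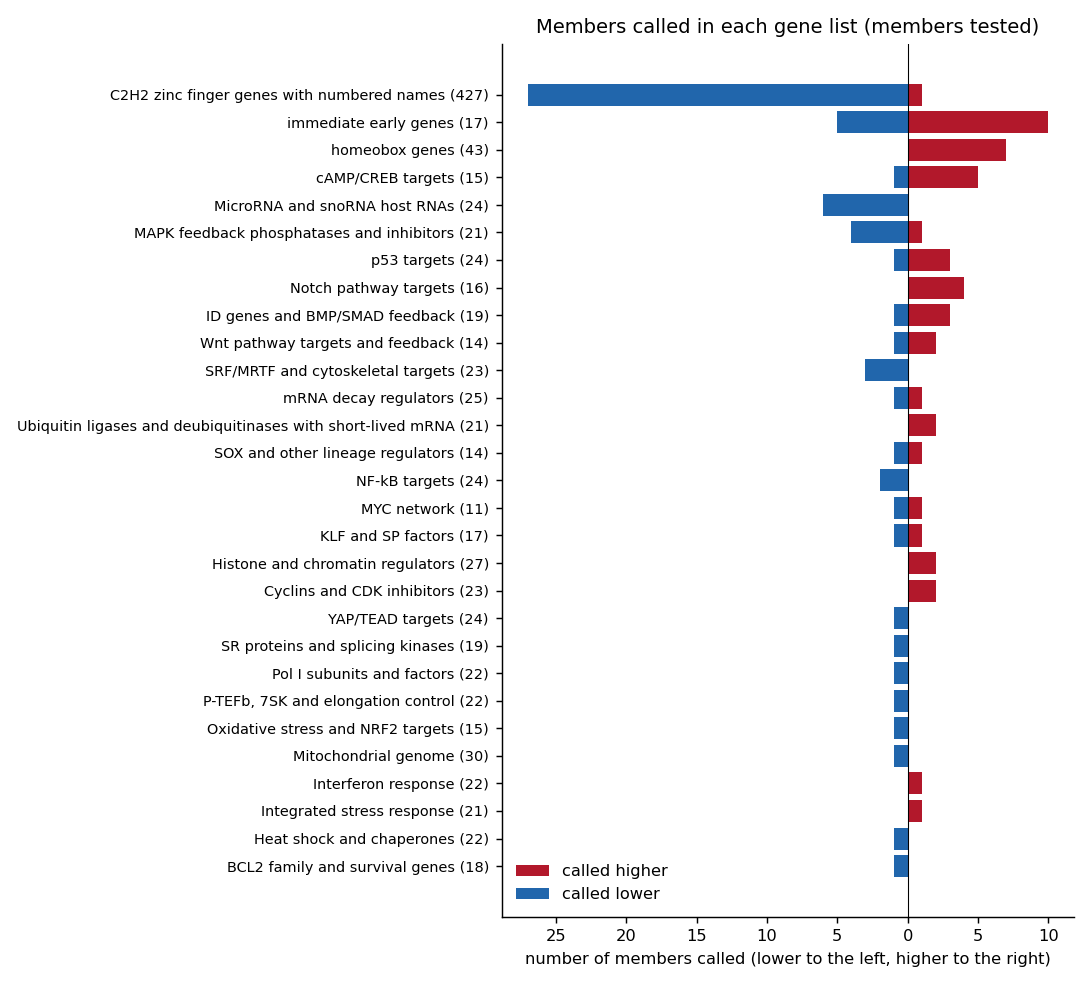
Number of members called higher (red, right) and lower (blue, left) in each list with at least 1 call, with the number of members tested in parentheses. Lists differ in size, and the background over all genes is 0.752% higher and 0.888% lower.

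PPP1R10 encodes PNUTS, the subunit that targets protein phosphatase 1 to the nucleus and to elongating polymerase. It was at 91.5 and 107 CPM in the controls and at 19.9 and 19.6 CPM with CX-5461, 5.03-fold lower (log2 -2.33 ± 0.10 SE, edgeR adjusted p = 9.32e-07), and it was the only one called of 22 genes of P-TEFb, 7SK and elongation control (median -0.04). CLK1, a kinase of splicing factors, fell from 57.7 and 69.3 to 28.1 and 27.8 CPM and was the only one called of 19 genes for SR proteins and splicing kinases (median -0.12). This call was lost with the offset for transcript length (log2 -0.83, edgeR adjusted p = 0.0923). SRSF3, an SR protein, was at 413 and 391 CPM in the controls and 360 and 363 CPM with CX-5461 and did not pass. ZFP36L1, which promotes mRNA decay, fell from 79.7 and 115 to 36.7 and 36.8 CPM, and BTG2 was the only other one called of 25 regulators of mRNA decay. The median of this list was -0.19, and its sign rested on the controls, with -0.41 and 3 called lower without control replicate 1 and 0.06 without control replicate 2. HSPA8, the constitutive HSP70 chaperone, fell from 2938 and 4359 to 1627 and 1674 CPM (log2 -1.14 ± 0.14 SE, adjusted p = 0.0011), and its call was lost without control replicate 2. HSP90AA1 (5316 and 5928 against 5384 and 5578 CPM) and the other chaperone genes tested were not called. CLK1, HSPA8 and ZFP36L1 overlap other, mostly small noncoding RNA genes on the same strand, where Salmon's division of reads is less certain.

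Of the Pol I machinery, 1 gene of 22 was called, with a median of 0.05 for the list. TAF1D encodes a subunit of SL1, the selectivity factor at the ribosomal DNA promoter, and hosts small nucleolar RNAs in its introns. It was at 238 and 256 CPM in the controls and at 123 and 119 CPM with CX-5461 (log2 -1.03 ± 0.06 SE, edgeR adjusted p = 9.91e-06), and its call was lost without either control replicate 2 or CX-5461 replicate 2. POLR1A, the largest Pol I subunit, was at 189 and 215 CPM against 169.9 and 199.8 CPM. None of the 22 Pol III genes, 46 ribosome biogenesis factors, 79 cytosolic ribosomal proteins or 17 nucleotide synthesis genes was called by edgeR or by DESeq2, and their medians were -0.06, -0.10, 0.12 and 0.03. Of these 164 genes, 19 had an unadjusted p under 0.05 in edgeR, and 3, all ribosome biogenesis factors that were lower, an adjusted p under 0.05. Without control replicate 1, edgeR called 5 ribosomal protein genes higher, with 42 of 79 higher without the limit and a median of 0.27, and 22 of 46 biogenesis factors were lower and 12 higher without the limit. With the length offset 1 biogenesis factor was called lower. NCL (nucleolin) was at 1412 and 1923 CPM in the controls and 1400 and 1406 CPM with CX-5461, and NPM1 at 2529 and 2954 against 2575 and 2534 CPM. Reads of ribosomal RNA had been taken out by the authors, so that Pol I output itself is not read here.

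Calls among stress, survival and immune genes are given by list, beside 0.752% higher and 0.888% lower over all genes tested. As for every list here, these were chosen with earlier results of these data known, so that the shares describe and do not test. Among p53 targets 12.5% were called higher and 4.17% lower. Called higher were 4.55% of interferon response and 4.76% of integrated stress response genes, with 0 called lower. Called lower were 8.33% of NF-kB targets, 5.56% of BCL2 family and survival genes and 6.67% of oxidative stress and NRF2 targets, with 0 called higher. Of 24 p53 targets, 3 were called higher and 1 lower (median 0.20), and without control replicate 2 none was higher and 1 lower. GADD45A fell from 62.6 and 57.0 to 25.9 and 26.1 CPM (log2 -1.20 ± 0.08 SE, edgeR adjusted p = 2.51e-05). CDKN1A, the cell cycle inhibitor p21, was at 25.1 and 17.6 CPM in the controls and 46.6 and 42.9 CPM with CX-5461, and this call and those of SESN2 and BTG2 were lost without control replicate 2. The call of CDKN1A was also lost with the offset for GC content and length (log2 0.85). BTG2 also lost its call with the length offset (log2 1.15, edgeR adjusted p = 0.0731). MDM2 was at 54.9 and 61.8 CPM against 50.01 and 48.8 CPM and did not pass. Of 24 NF-kB targets, NFKBIA, the inhibitor of NF-kB, fell from 33.1 and 33.8 to 16.4 and 16.3 CPM and kept its call in every fit without a library, while BIRC3 lost its own without either control replicate 2 or CX-5461 replicate 2. The call of BIRC3 was also lost with the offset for GC content and length (log2 -0.76). MCL1, a survival protein with a short-lived mRNA, was at 248 and 298 CPM in the controls and 146 and 147 CPM with CX-5461. MCL1 passed without reaching the limit (log2 -0.90 ± 0.10 SE). IRF1 rose from 22.7 and 16.8 to 45.8 and 43.1 CPM and was the only one called of 22 interferon response genes, a call lost without control replicate 2. CCNG2, a cyclin of arrested cells, rose from 8.95 and 8.55 to 19.6 and 18.6 CPM. ATF4 fell by 0.51 on the log2 scale, under the limit, and SESN2 was the only one called of 21 integrated stress response genes. OSGIN1, the only one called of 15 oxidative stress and NRF2 targets, was at 75.1 and 44.4 CPM in the controls and 22.4 and 24.9 CPM with CX-5461, and lost its call without either control replicate 1 or CX-5461 replicate 1. KDM7A, a histone demethylase, was called higher among 27 chromatin regulators (2.67 and 4.31 against 7.98 and 6.56 CPM) and lost its call in 3 of the fits. OTUD1 and RNF122, a deubiquitinase and a ubiquitin ligase, were the only ones called of 21 such genes with short-lived mRNAs. OTUD1 rose from 2.98 and 1.997 to 9.05 and 10.3 CPM.

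Of 24 host RNAs of microRNAs and small nucleolar RNAs tested, 6 were called lower, 11 were lower without the limit, and 13 did not pass. Called lower were 25% of this list, compared with 0.888% of all genes tested and 1.47% of long noncoding RNAs. Lower without the limit were 45.8%, compared with 2.98% and 3.02%. The log2 fold change was below 0 for 22 of them, compared with 8324 of all 15426 genes and 1411 of 2184 long noncoding RNAs. The median was -0.90, compared with -0.04 and -0.21. MIR222HG was at 22.8 and 34.8 CPM in the controls and at 3.18 and 3.61 CPM with CX-5461, 8.44-fold lower (log2 -3.08 ± 0.19 SE, edgeR adjusted p = 9.91e-06). MIR17HG fell from 4.85 and 4.47 to 1.02 and 0.89 CPM, and MIR3142HG, which was low (1.55 and 1.20 against 0.162 and 0.222 CPM), lost its call without CX-5461 replicate 1. The hosts of small nucleolar RNAs SNHG3 (63.2 and 65.9 against 23.1 and 19.5 CPM), SNHG4 (71.5 and 80.0 against 26.6 and 26.9 CPM) and SNHG12 (28.2 and 20.1 against 10.2 and 8.51 CPM) kept their calls in every fit without a library. GAS5 (201 and 190 against 109 and 102 CPM), SNHG17 (log2 -0.99), MIR100HG, SNHG15 and SNHG1 (log2 -0.37) were lower without reaching the limit. The median was -0.36 without control replicate 1, with 7 members called lower and 1 higher, and without control replicate 2 it was -0.81, with 10 called lower. Reads of these hosts may be shared with the small RNA genes inside them and, for SNHG3 and SNHG4, with the protein-coding genes RCC1 and MATR3 on the same strand.

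Of the mature microRNAs within the 3 fallen microRNA hosts of the list, 9 are shown, from RefSeq (GRCh38.p14), to identify what these RNAs carry. Small RNAs were not measured in these poly(A) libraries. Capitals mark the seed, bases 2 to 8. MIR222HG (chrX, minus strand) holds 3 mature microRNAs, of which a pair shares 1 seed, at chrX:45746180-45746202 and chrX:45747036-45747056.
hsa-miR-221-3p: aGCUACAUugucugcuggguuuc
hsa-miR-222-3p: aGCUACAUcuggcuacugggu
MIR17HG (chr13, plus strand, the microRNAs between chr13:91350618-91350640 and chr13:91351361-91351382) holds 12 mature microRNAs with 9 different seeds, among them a pair with the seed AAAGUGC and a pair with the seed GUGCAAA, and the single seeds of miR-18a-5p and miR-92a-3p.
hsa-miR-17-5p: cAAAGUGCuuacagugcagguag
hsa-miR-20a-5p: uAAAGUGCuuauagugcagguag
hsa-miR-19a-3p: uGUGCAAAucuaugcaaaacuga
hsa-miR-19b-3p: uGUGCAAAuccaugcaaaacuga
hsa-miR-18a-5p: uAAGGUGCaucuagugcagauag
hsa-miR-92a-3p: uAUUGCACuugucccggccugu
MIR3142HG (chr5, plus strand) holds 3 mature microRNAs, among them miR-146a-5p, at chr5:160485372-160485393, which is known as a feedback regulator of NF-kB signalling.
hsa-miR-146a-5p: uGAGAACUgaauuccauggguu
No seed printed for one host is shared with another, and the 3 hosts lie on different chromosomes.

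The C2H2 zinc finger genes with numbered names were the largest list. Of 427 tested, 27 were called lower and 1 higher (ZNF503), 67 were lower and 3 higher without the limit, and 357 did not pass. Called lower were thus 6.32%, beside 0.888% of all genes tested. Lower without the limit were 15.7%, beside 2.98%. The log2 fold change was below 0 for 327 of the 427, compared with 8324 of all 15426 genes tested. The median of the list was -0.35. The largest fall with at least 5 CPM was that of ZNF792 (6.59 and 7.91 against 1.51 and 2.22 CPM, log2 -1.95 ± 0.21 SE, edgeR adjusted p = 0.000433). ZNF337 fell from 9.01 and 11.6 to 4.31 and 3.45 CPM. ZNF792, ZNF337 and ZNF17 were the only ones of the 28 that kept their call in every fit without a library, and ZNF17 lost it with the offset for transcript length (log2 -0.91, edgeR adjusted p = 0.0652). The size of this pattern moved with the libraries in the model. Without control replicate 1 the median was -0.47 with 72 called lower, and without control replicate 2 it was -0.18 with 9 called lower. Without CX-5461 replicate 1 and replicate 2, 11 and 15 were called lower. With an offset for GC content and length the median was -0.28 with 19 called lower, and with the length offset -0.27 with 14.

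Genes outside the lists moved as well. By the rule of the largest changes, the rises included TNFSF9, the ligand of 4-1BB (2.11 and 1.36 against 11.6 and 10.4 CPM), and RASD1, a small GTPase (2.67 and 2.16 against 14.3 and 13.7 CPM). FAM53C rose from 60.5 and 55.04 to 151 and 153 CPM, log2 1.39 ± 0.08 SE, with an edgeR adjusted p of 4.1e-06. FGFR3, a receptor tyrosine kinase, rose from 5.66 and 4.15 to 13.4 and 13.95 CPM, and CSRNP1, a nuclear protein, from 16.5 and 10.1 to 33.1 and 33.5 CPM. The falls included CD274, which encodes PD-L1 (15.4 and 22.8 against 6.47 and 6.45 CPM), and HAS2, a hyaluronan synthase (9.07 and 7.35 against 2.16 and 2.67 CPM). All of these kept their call in every fit without a library. XBP1 (20.9 and 32.4 against 8.41 and 6.17 CPM) and METRNL lost theirs without control replicate 2 and without either treated library. Mitochondrial genes had a median of -0.84, and MT-CYB, the only one edgeR called of 30, was at 4402 and 10740 CPM in the controls and 2364 and 2269 CPM with CX-5461. DESeq2 called 7 of the 30 lower. In edgeR without control replicate 1, 17 were lower and the median was -1.36. Without control replicate 2 the median of the 30 genes was -0.19 and none was called, and that library had the highest mitochondrial share (above). MT-CYB itself lay below control replicate 1 and below the 10 libraries outside the comparison, which ranged from 3631 to 5126 CPM.

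In the model of all 14 libraries as described, none of the 25 genes of G2/M and mitosis, the 25 of G1/S and replication, the 25 of DNA damage response and repair, the 11 topoisomerases and their repair genes, the 20 replication-dependent histones, the 22 of cholesterol synthesis, the 18 hypoxia targets, the 5 metallothioneins or the 26 mesenchymal and matrix genes was called by edgeR, and DESeq2 called none of them either. Of these 177 genes, 30 had an unadjusted p under 0.05 in edgeR and 6 an adjusted p under 0.05. TOP2A, a topoisomerase of dividing cells, was at 770 and 955 CPM in the controls and 694 and 736 CPM with CX-5461, and CCNB1 at 469 and 404 against 446 and 454 CPM. Without control replicate 1, edgeR called 4 of the 25 DNA damage and repair genes lower (13 without the limit), 1 of the 25 G2/M genes lower (15 without the limit) and 1 cholesterol gene higher. Without control replicate 2, 1 of the 20 histone genes was called higher and 1 lower. With the offset for GC content and length 1 histone gene, and with the length offset 1 hypoxia target, was called lower. The G2/M list had a median of -0.25, and without control replicates 1 and 2 in turn it was -0.43 and 0.00. GAPDH, the reference gene of the study, was at 3373 and 2913 CPM in the controls and 3416 and 3398 CPM with CX-5461 (log2 0.12 ± 0.09 SE). A call that is missing here does not show that the levels are equal.

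By class, 108 of 12605 protein-coding genes were called higher (0.857%) and 99 lower (0.785%). Of 2184 long noncoding RNAs, 5 were higher (0.229%) and 32 lower (1.47%), with a median of -0.21, and without control replicate 2 they were 3 and 26. Leaving out control replicate 1 gave 63 and 165 of them, and 562 and 386 protein-coding genes. By span on the genome, 51 of 2304 protein-coding genes under 10 kb were higher (2.21%) and 36 lower (1.56%), compared with 22 and 21 of 4257 genes between 30 and 100 kb (0.517% and 0.493%) and 0 and 3 of 429 genes over 300 kb. Without control replicate 2 the genes under 10 kb held 37 higher and 30 lower calls and those over 300 kb 0 and 1. The genes under 10 kb held, without control replicate 1, 275 higher and 74 lower, and those over 300 kb 2 and 29, so that the order of the shares called lower turned. By GC content of the transcripts, genes were split into 5 classes of equal size, and the class with the highest GC held 58 genes called higher and 6 lower of 2521, and the class with the lowest 4 and 20. The medians of these classes were 0.27 and -0.17. This order moved with control replicate 2. Without it the medians were 0.07 and 0.01, with 26 higher and 7 lower calls in the top class, and without control replicate 1 they were 0.54 and -0.34. With an offset for GC content and length the top class held 31 higher and 9 lower calls, and the lowest class 7 and 8.

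**Figure D4:**
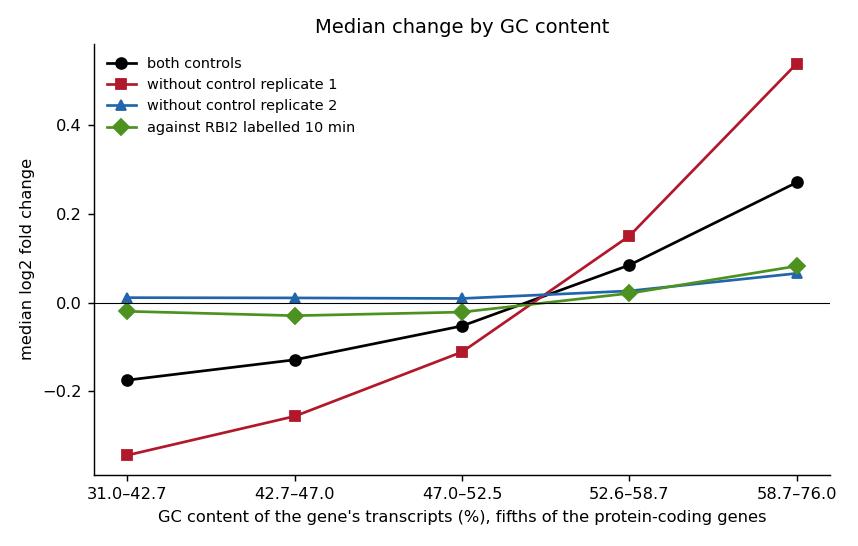
Median log2 fold change of CX-5461 labelled 10 min in 5 equal classes of the protein-coding genes by GC content of their transcripts, against both controls (black), without control replicate 1 (red), without control replicate 2 (blue) and against RBI2 labelled 10 min (green). The black line runs from -0.17 to 0.27, the red line from -0.34 to 0.54, and the blue line from 0.01 to 0.07.

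To see where the libraries labelled 10 min differ from other treated cells, they were compared directly with CX-5461 labelled 30 and 120 min and with RBI2 labelled 10 min. These tests set no control library against the treated ones, though the controls stay in the model and enter its filter and spread. Leaving out control replicates 1 and 2 in turn gave 193 and 196 calls against the other times and 225 and 225 against RBI2. The tests share the 2 treated libraries with each other and with the comparison above, so that their values are set side by side and their likeness is no further evidence. Against the mean of the labels 30 and 120 min, 165 genes (1.07%) were called, 99 higher and 66 lower. Against RBI2 labelled 10 min, 160 (1.04%) were called, 62 higher and 98 lower. Of the 253 genes called against the control, 119 were also called against the other times, 101 against RBI2 and 80 in both (41 higher and 39 lower). Both treated libraries lay above all 12 other libraries of the series for 103 of the 116 genes called higher, and below them for 117 of the 137 called lower. Over all genes tested these shares were 4.12% and 6.19%, and the called genes had been chosen for a difference from 2 of those 12 libraries.

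ID2 was higher by log2 3.07 ± 0.09 SE against the other times and by 2.81 ± 0.10 SE against RBI2. NR4A2 was higher by 3.29 and 3.25. FZD8 was higher by 2.64 and 2.96, and FOSB by 2.43 and 2.15. For CCN1 the values were -2.69 and -2.98, for MYC -2.06 and -2.30, and for PPP1R10 -1.996 and -2.68. For ID1 they were -1.55 against the other times and -2.37 against RBI2, whose libraries had a mean of 232 CPM. For all of these genes both treated libraries lay outside the range of the 12 other libraries, as for most genes called against the control (above). For HES1 the direct comparison with RBI2 gave log2 -0.28 ± 0.11 SE (edgeR adjusted p = 0.26), and for SOX9 -0.06 (adjusted p = 0.93), so that a difference between the compounds at this label was not detected for these genes. CSRNP1 likewise did not pass against RBI2 (log2 -0.27). CLK1 did not pass against the other times (log2 -0.28, adjusted p = 0.16). Of the 427 zinc finger genes, 8 were called lower against the other times and 21 against RBI2, with medians of -0.21 and -0.30. The host RNAs held 6 and 8 genes called lower, with medians of -0.56 and -0.59. The GC classes had medians of -0.05 to 0.01 against the other times and -0.03 to 0.08 against RBI2.

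**Figure D5:**
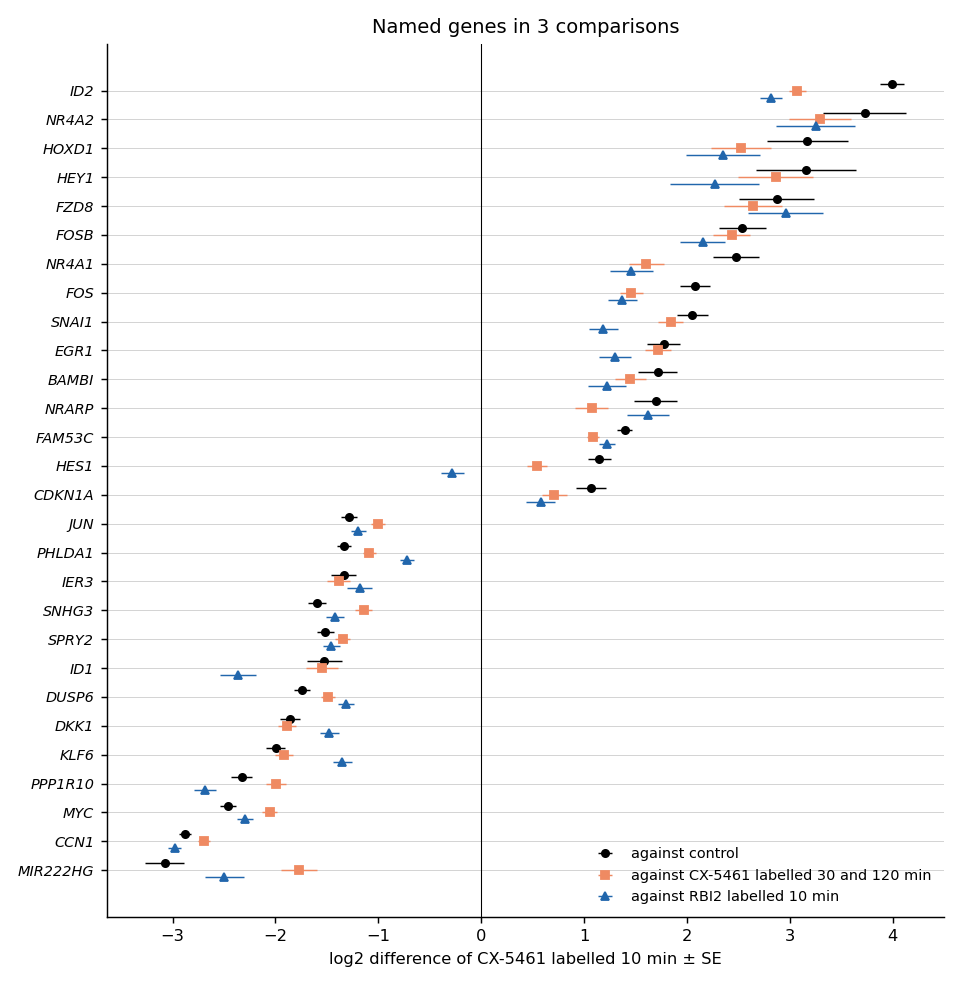
Log2 difference ± SE of CX-5461 labelled 10 min from the control (black), from the mean of CX-5461 labelled 30 and 120 min (orange) and from RBI2 labelled 10 min (blue) for named genes. All but HES1 lie on the same side of 0 in the 3 comparisons, which share the treated libraries.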

How the data were processed

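Poly(A) RNA of 14 libraries had been sequenced after a stranded mRNA preparation. The authors took out reads of ribosomal DNA and quantified transcripts with Salmon (version 1.3.0), and deposited estimated counts and TPM per transcript (GRCh38). The submitters' processing notes also name STAR 2.7.6a and DESeq2 1.28.1. Here, estimated counts of 225662 of 228754 transcripts were summed to 60876 genes of GENCODE release 44 and rounded to whole numbers. Reads of transcripts without a gene (1.03% to 1.13% per library) were left out. edgeR 4.0.16 (R 4.3.3) was run with TMM scaling, filterByExpr with a minimum count of 10, and the quasi-likelihood test on all 7 groups. TPM served for levels between genes only. DESeq2 1.42.0, other scalings and filters, offsets for length and GC content, a replicate block, and each library left out in turn were the alternatives. The scripts were tested on simulated data.

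Members and lists were chosen with earlier results of these data known. Named genes were the called members of each list, up to 4 highly expressed members of lists with few calls, the ID and CCN families, GAPDH, the 20 largest changes in each direction (a mean of 5 CPM or more where higher, no overlapping gene), and the 5 largest of each direct comparison. Members that passed the adjusted p without the limit on the fold change, and the homeobox list, were picked after their values were seen. No replicate pair was as close as sampling noise, so that all libraries were counted. Precision is limited by 2 libraries per group and totals of 14112299 to 24849354 reads. Some named genes are not reported here.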

Additional observations from a re-analysis of the deposited data

Results flagged for a closer look

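The libraries of CX-5461 labelled 10 min differed from other treated cells in direct tests with edgeR. Against the mean of CX-5461 labelled 30 and 120 min, the difference was log2 -2.69 for CCN1, -2.06 for MYC, 3.07 for ID2, 3.29 for NR4A2 and 2.43 for FOSB. Against RBI2 labelled 10 min it was -2.98 for CCN1, -2.68 for PPP1R10, -2.37 for ID1, 2.81 for ID2 and 3.25 for NR4A2. Both tests share the same pair of treated libraries. The disagreement between labelled times and the numbers in the deposited names bears on the first of them, and its part was not tested.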

How the results depend on the processing

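Against the control, 253 genes were called. Without a filter on low counts there were 726, with only the groups compared in the model 3, without the limit on the fold change 736, and with 1 library left out 129 to 1354. DESeq2 called 268 and shared 215, the length offset called 185 and shared 143, and the offset for GC content and length called 226 and shared 185. Among other named genes, both offsets in turn ended the calls of TAF1D (log2 -0.97 and -0.89), SOX9 (log2 -0.97 and -0.94) and IRF1 (log2 0.98 and 0.99). Their edgeR adjusted p stayed under 0.05, and the log2 fold changes fell just under the limit. Against CX-5461 labelled 30 and 120 min, 165 genes were called, with 371 without the filter, 601 without the limit and 86 to 196 with a library left out. Against RBI2 labelled 10 min, 160 were called, with 398 without the filter, 104 with the length offset, 258 with only the groups compared, 472 without the limit and 95 to 225 with a library left out. The cause was not tested. Of the 253 genes, those that an alternative fitted kept their sign in it (251 were fitted with only the groups compared, and 252 without mitochondrial genes), except with the length offset, where 252 did. H2AX, at log2 0.09, was at -0.356 with the offset for GC content and length and at -0.356 with the replicate block as well. SOCS3, at -0.04, was at 0.28 without control replicate 1 and at -0.29 without control replicate 2. Replicate numbers did not pair the samples: the deviations of same-numbered libraries correlated at 0.107 between the control and CX-5461 labelled 10 min and at -0.179 to 0.18 between other groups. With the replicate block 238 genes were called, 228 of them among the 253. Of the 116 genes called higher, 82 lay under 5 CPM in the control, and the effect of depth on their calls was not tested.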
